A study of Mus musculus with 16 samples.

Results

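Gene expression was compared between naive CD4+ T cells with much and with little CD5 on their surface. The cells came from lymph nodes of C57BL/6 mice and were sorted as CD4+, CD25-, CD62Lhi and CD44lo. From this gate, the third of cells richest in CD5 (CD5hi) and the third poorest in it (CD5lo) were collected, so cells with intermediate CD5 are in neither group. Of the 16 libraries of the series, the 8 made from CD4+ cells were chosen by their labels, 4 CD5lo and 4 CD5hi, numbered 1 to 4 in each group. The other 8 libraries are CD8+ cells sorted by CD5 in the same manner. They entered the shared estimate of spread and 1 test of whether an effect differed between the lineages. The labels give no treatment, age, sex or number of animals, and each library was made from the total RNA of a sorted population. Nothing in the labels says that replicates came from separate animals, so p-values measure the spread between these libraries.

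CD5 is a surface receptor of T cells that dampens signalling from the T cell receptor. A naive T cell carries more CD5 the more strongly its receptor engages self peptides on MHC molecules, and the level is set during selection in the thymus and maintained in the periphery. In CD4+ cells, strong self recognition is also the route by which regulatory T cells and anergic cells, which both restrain responses, arise. The title of the series joins CD5 to basal signalling through NF-kB, a family of transcription factors that act downstream of the T cell receptor and of receptors of the TNF family.

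The 8 libraries held 72407317 to 83872296 counts. All 11 naive CD4 T cell markers in the table were detected in every library, with summed levels of 7601 to 8591 CPM (counts scaled by each library's TMM-adjusted total) in CD5lo and 7655 to 8162 CPM in CD5hi. Cd4 stood at 1181, 1068, 1119 and 1268 CPM in CD5lo and 971, 1066, 1033 and 1024 CPM in CD5hi and was not called (adjusted p = 0.279 in the 8 CD4 libraries alone), and the gated Cd44 was not called different between the groups (adjusted p = 0.984). One library stood apart in RNA of another cell type. The 16 B cell markers summed to 402 CPM in CD5lo replicate 3 and to 11.4 to 40.9 CPM in the other 7 libraries, and of these markers the MHC class II invariant chain Cd74 was at 12.3, 10.6, 135 and 7.49 CPM in CD5lo. All 16 B cell markers had counts in each CD5lo library, and up to 3 were at 0 in a CD5hi library. Markers of myeloid cells summed to 46.3 to 66.3 CPM and those of natural killer and innate lymphoid cells to 3.30 to 7.03 CPM. Libraries of equal number also shared a source of variation. Xist, expressed from the inactive X chromosome of females, was at 225 and 248 CPM in replicate 4 of CD5lo and CD5hi and at most 0.206 CPM in the other 6, while the Y-linked Ddx3y was at 59.3 and 47.9 CPM in replicate 4 and at 103 to 126 CPM elsewhere.

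Of 13554 genes tested, 363 were higher (2.68%) and 190 lower (1.40%) in CD5hi at an adjusted p under 0.05, together 553 genes (4.08%). Most of these changes were modest. By at least 2-fold, 160 genes rose and 62 fell. By less than 1.5-fold, 128 rose and 81 fell. Among genes with a mean of 50 CPM or more, 86 rose and 60 fell, with a median size of 0.40 on the log2 scale. Among genes under 5 CPM, 125 rose and 55 fell, with a median size of 1.64. Of the 553 genes, 552 moved one way in all 4 pairs of equal replicate number, which 4205 of all tested genes did (31.0%), and in 530 the 4 CD5lo and the 4 CD5hi libraries did not overlap, which held for 1259 of all tested genes (9.29%). With the replicate number as a block, 826 genes were higher and 579 lower (10.4% of those tested), with 550 of the 553 called again. The 855 genes called only with the block had a median size of 0.34, against 0.79 for the 553. When the library rich in B cell RNA, CD5lo replicate 3, was left out, 335 were higher and 159 lower (3.64%), and 445 of the 553 were called again, 299 higher and 146 lower. In the plot of change against level, called genes span the whole range of expression. Leaving out CD5hi replicate 4 lowered the number of lower genes to 123.

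**Figure D1:**
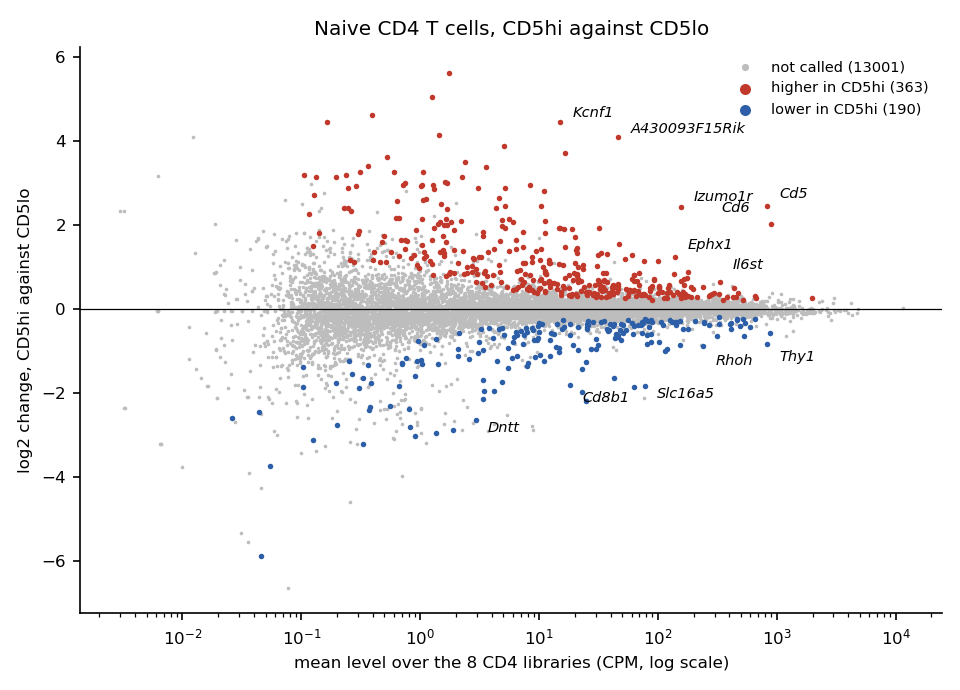
Log2 change in CD5hi against CD5lo for each tested gene (y axis) against its mean level over the 8 CD4 libraries in CPM (x axis, log scale). Red points are the 363 genes called higher, blue points the 190 called lower and grey points were not called; large changes sit mostly at low levels, while Cd5, Cd6, Thy1 and Slc16a5 combine high levels with clear changes.

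Some of the clearest rises lay side by side on chromosome 19, at the gene behind the sort. Cd5 was at 276, 237, 267 and 239 CPM in CD5lo and 1427, 1349, 1368 and 1399 CPM in CD5hi, a rise that follows from the gate and is given for scale only (2.44 ± 0.07 on the log2 scale, ± SE). Its relative Cd6, which encodes a receptor of the same scavenger receptor family that binds CD166, was at 368, 328, 393 and 343 CPM in CD5lo and 1497, 1350.0, 1462 and 1438 CPM in CD5hi. Between them lies A430093F15Rik, a noncoding transcript that was picked out here after its values were seen. It was at 4.69, 5.64, 5.19 and 4.87 CPM in CD5lo and 92.4, 83.2, 87.9 and 84.98 CPM in CD5hi. Its rise of 4.10 ± 0.12 (adjusted p = 3.33e-12) exceeded those of Cd5 and of Cd6 (2.01 ± 0.07, adjusted p = 2.63e-11), and no CD5lo library came near a CD5hi library for any of the 3 genes. Per kilobase of exon the transcript remained the lowest of the 3 in CD5hi, at 27.9 CPM per kb beside 281 for Cd5 and 180.3 for Cd6. In GENCODE vM21 (GRCm38), Cd5 spans 10717116 to 10739002 and Cd6 10789341 to 10830058, both on the minus strand, and A430093F15Rik runs from 10740947 to 10786043 on the plus strand. Cd5 and the noncoding transcript are thus divided by 1944 bp and are read in opposite directions away from each other. No exonic base of the 3 genes is shared with another tested gene. In CD8+ cells the same 3 genes rose by 1.31, 1.13 and 2.56, and the interaction term had an adjusted p of 0.000388 for Cd6 and 0.000157 for A430093F15Rik. Cd5 is the gene of the gate, so its own difference is not read as a result, and the part of the gates' positions in the others was not tested.

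Because the sort turns on Cd5 and the gene next to it rose further, the 250 bases upstream of both starts are shown as RefSeq places them (GRCm38.p6), each 5′ to 3′ on its own strand, at chr19:10738975-10739224 for Cd5 and chr19:10740697-10740946 for A430093F15Rik. No window for Cd6 was used. Capitals mark GGAAGT, the core of many ETS factor sites, searched on both strands after the windows had been read.
Cd5: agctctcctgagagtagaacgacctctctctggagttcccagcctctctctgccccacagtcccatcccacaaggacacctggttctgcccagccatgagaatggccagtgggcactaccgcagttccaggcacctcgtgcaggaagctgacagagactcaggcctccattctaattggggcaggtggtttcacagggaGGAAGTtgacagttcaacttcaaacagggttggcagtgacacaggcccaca
A430093F15Rik: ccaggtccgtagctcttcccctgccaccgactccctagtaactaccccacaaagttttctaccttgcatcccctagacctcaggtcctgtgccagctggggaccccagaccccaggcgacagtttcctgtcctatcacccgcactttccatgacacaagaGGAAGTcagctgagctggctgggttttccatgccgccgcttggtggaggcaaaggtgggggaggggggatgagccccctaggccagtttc
Each window holds GGAAGT once on the printed strand, starting 51 bases before the start of Cd5 and 90 bases before that of A430093F15Rik, and 20% of all 27025 windows of this length hold it on one strand or the other. A kB motif, searched on both strands, was found in neither window and in 7.01% of all windows. Such matches describe letters in a window only.

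Other neighbours also moved together. Among pairs of tested genes that follow each other on a chromosome with at most 100 kb between them, 10863 in all, 57 had both genes called and 51 of these moved in one direction, 36 higher and 15 lower. Of the genes next to a gene that rose, 13.3% rose as well, beside 2.68% of all tested genes, and of those next to a gene that fell, 10.9% fell, beside 1.40%. For pairs at least 1 kb apart, which leaves out overlapping and abutting genes, the shares were 14.3% and 12.3%, with 48 of 7431 pairs called together. The kinase genes Txk and Tec lie 2938 bp apart and both fell. Gpr83 and Izumo1r, both known from regulatory T cells, lie 15024 bp apart and both rose. The surface proteins Cd101 and Ptgfrn, 10675 bp apart, rose by 1.17 and 1.46. Both chains of CD8, Cd8b1 and Cd8a, fell. Gucy1b3 and Gucy1a3, which encode the subunits of the nitric oxide receptor guanylate cyclase, rose by 2.10 ± 0.24 (adjusted p = 4.35e-05) and 2.98 ± 0.31 (adjusted p = 1.61e-05), though from levels of 0.613 to 0.993 CPM and 0.115 to 0.235 CPM. In 6 pairs the genes moved apart, among them Crtam, which fell, and Ubash3b, which rose, 6469 bp from each other. The plot of neighbouring genes shows the pairs called together mostly in the corners where both changes have one sign. The pairs were counted, and the examples chosen, after the data were seen. The 57 pairs became 178 with the replicate block, and 36, 35, 37 and 37 without CD5lo replicate 1, CD5lo replicate 4, CD5hi replicate 3 or CD5hi replicate 4.

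**Figure D2:**
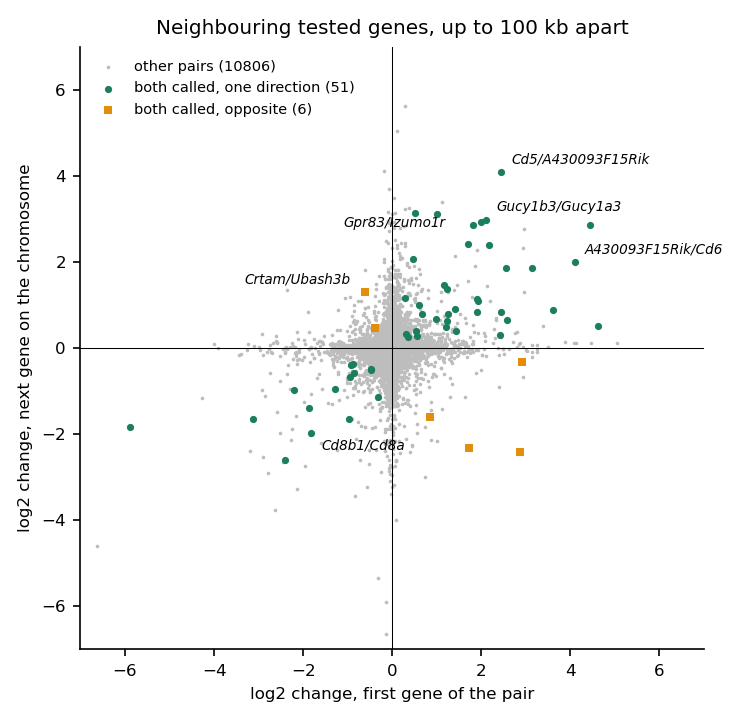
Log2 changes in CD5hi against CD5lo of 2 tested genes that follow each other on a chromosome at most 100 kb apart, the first on the x axis and the next on the y axis. Of the 57 pairs with both genes called, 51 (green) lie where both rose or both fell and 6 (orange squares) where they moved apart and other pairs are grey.

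Inhibitory receptors that were called were nearly all higher. Of 18 tested members of that list, 8 rose and 1 fell (50% called, beside 4.08% of all genes), with a median log2 change of 0.22 beside -0.01 over all genes. Without CD5lo replicate 3 these counts were 6 and 1, and without CD5lo replicate 4 or CD5hi replicate 4 they were 5 and 1. Cd200, a ligand of an inhibitory myeloid receptor, was at 6.71, 7.96, 6.56 and 6.13 CPM in CD5lo and 31.8, 25.02, 21.9 and 24.1 CPM in CD5hi. Adora2a, the adenosine receptor that raises cyclic AMP, was at 8.29, 7.89, 9.78 and 9.04 CPM in CD5lo and 25.1, 21.8, 23.4 and 26.9 CPM in CD5hi. Pdcd1 (PD-1) was at 1.82, 1.52, 2.12 and 2.38 CPM in CD5lo and 10.1, 7.37, 5.51 and 7.95 CPM in CD5hi. In all 3 genes every CD5hi library exceeded every CD5lo library, and the rises were 1.91 ± 0.18, 1.47 ± 0.12 and 1.98 ± 0.22 (adjusted p = 6.08e-06, 1.54e-06 and 3.53e-05). The inhibitory receptor of collagen, Lair1, went the other way, from 10.3, 12.3, 11.1 and 11.9 CPM in CD5lo to 6.104, 6.01, 7.67 and 7.53 CPM in CD5hi (adjusted p = 0.000289). Ctla4, an inhibitory receptor that was not called (log2 change 0.19 ± 0.59) and was picked out after its values were seen, followed the replicate number, at 6.01, 24.2, 26.3 and 13.3 CPM in CD5lo and 6.89, 23.8, 26.8 and 22.1 CPM in CD5hi.

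Among 28 costimulatory and TNF family genes, 6 rose and 1 fell, with a median of 0.06. With the block 10 rose and 4 fell, without CD5lo replicate 3 there were 4 and 1, and without CD5lo replicate 4 or CD5hi replicate 4 there were 3 and 1. Tnfrsf9 (4-1BB) was at 2.64, 2.51, 3.29 and 2.72 CPM in CD5lo and 22.8, 18.4, 15.99 and 20.2 CPM in CD5hi. Tnfrsf4 (OX40) was at 16.4, 15.6, 15.3 and 13.5 CPM in CD5lo and 26.5, 23.4, 29.7 and 27.9 CPM in CD5hi. Both sets of libraries were apart, and Tnfrsf9 rose by 2.79 ± 0.14 (adjusted p = 3.9e-09) and Tnfrsf4 by 0.82 ± 0.15 (adjusted p = 0.00435). Tnfsf14 (LIGHT), a ligand of that family, rose by 1.87 from a mean of 0.392 to 1.44 CPM. The adhesion receptor Crtam fell by 0.61, with 21.6, 24.4, 19.1 and 23.1 CPM in CD5lo and 12.5, 14.9, 14.8 and 15.5 CPM in CD5hi.

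Receptors for cytokines were called in both directions. Of 30 tested, 2 rose and 1 fell (10%, beside 4.08% of all genes), with a median of -0.03, and 3 and 5 with the block. The shared signalling chain of the interleukin 6 family, Il6st (gp130), was at 227, 266, 259 and 299 CPM in CD5lo and 366, 441, 415 and 416 CPM in CD5hi, so the lowest CD5hi library lay above the highest CD5lo library, and it rose by 0.64 ± 0.10 (adjusted p = 0.000765). Il2rb, the beta chain of the receptors for interleukins 2 and 15, was at 8.82, 10.5, 22.8 and 11.5 CPM in CD5lo, highest in the library rich in B cell RNA, and at 37.6, 52.8, 56.8 and 55.3 CPM in CD5hi. It rose by 1.92 ± 0.24, and by 2.30 without that library. Of 23 genes of the JAK, STAT and SOCS families, 0 rose and 2 fell, while the block called 6 higher and 4 lower, DESeq2 1 and 3, limma voom 0 and 2, and 6 were higher and 4 lower at p under 0.05 before adjustment. The feedback inhibitor Socs3, induced through gp130, was at 216, 183, 203 and 189 CPM in CD5lo and 94.3, 103, 113 and 124 CPM in CD5hi (adjusted p = 0.00153), a fall of 0.87 ± 0.14. The median of that list was 0.06.

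Chemokine receptors, integrins and homing genes were called at a share near that of all genes (4.08%). Of 35 tested, 1 was higher and 1 lower (5.71%), and 4 and 3 with the block. The lower one was the gut-homing receptor Ccr9, at 47.8, 28.2, 40.4 and 29.3 CPM in CD5lo and 9.87, 9.83, 11.3 and 5.99 CPM in CD5hi, a fall of 1.98 ± 0.19. Other G protein-coupled receptors and their RGS regulators moved more often: of 40 tested, 8 rose and 2 fell (25.0%), at a median of 0.04, and 11 and 8 with the block. Gpr83 was at 9.38, 9.93, 8.87 and 9.68 CPM in CD5lo and 33.01, 34.1, 27.5 and 29.4 CPM in CD5hi. The prostaglandin E2 receptor Ptger2 rose by 1.87 ± 0.18 from a mean of only 0.825 CPM to 3.01 CPM. Rgs10 and Rgs3, which shorten G protein signals, rose by 0.74 and 0.67, from 139, 137, 135 and 113 CPM to 247, 199.5, 219.6 and 209 CPM and from 71.9, 71.7, 67.7 and 75.2 CPM to 111, 116, 108 and 123 CPM over libraries 1 to 4. In neither gene did the groups overlap.

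**Figure D3:**
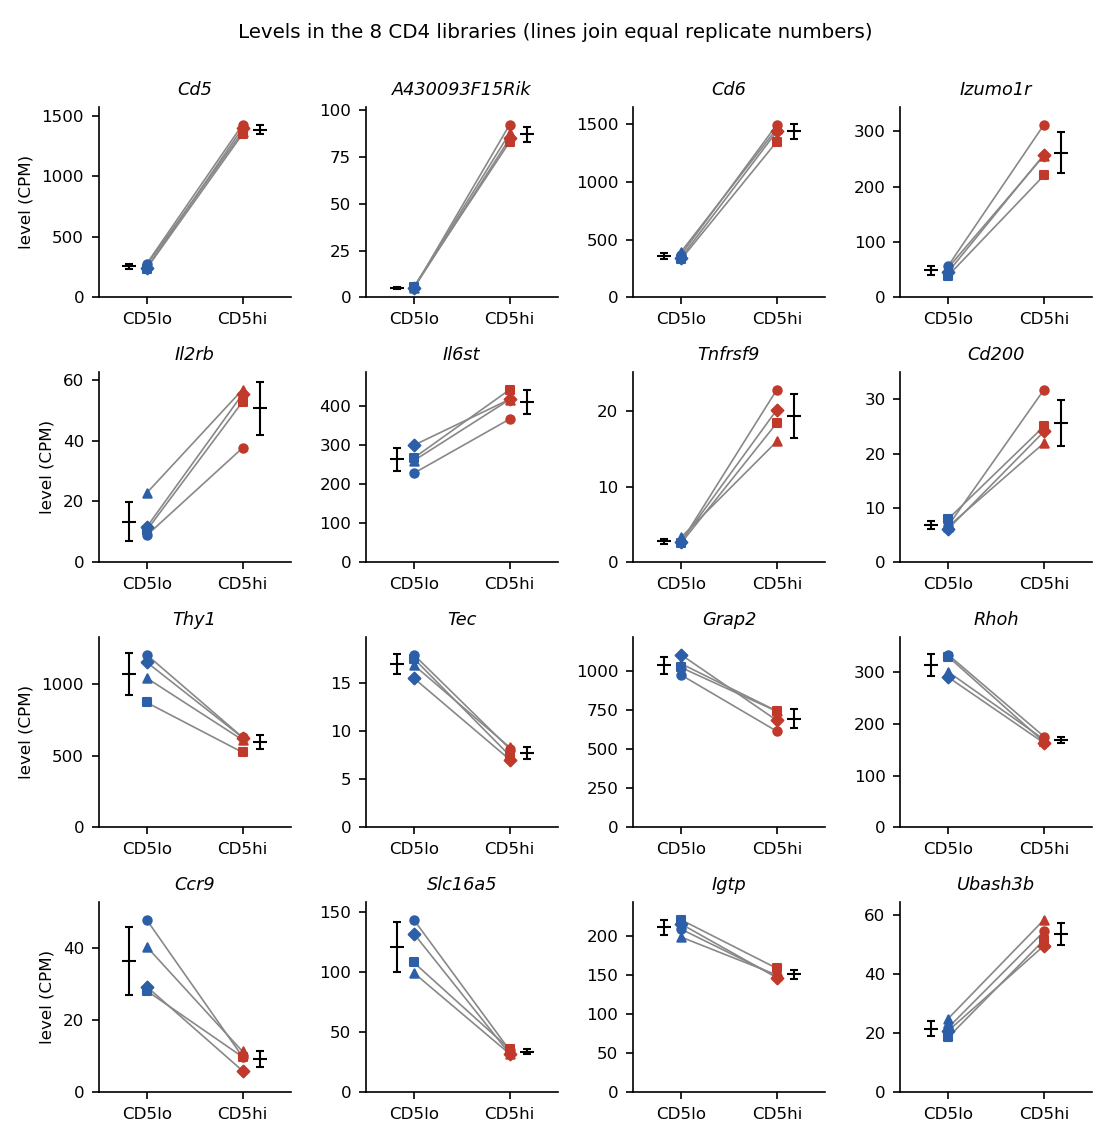
Levels in CPM (y axes, from 0) of 16 genes in the 4 CD5lo (blue) and the 4 CD5hi (red) CD4 libraries. Lines join libraries of equal replicate number (circle 1, square 2, triangle 3, diamond 4) and black bars give mean and SD of 4 libraries; in each panel the CD5hi and CD5lo libraries do not overlap, and all 4 lines slope one way.

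Genes of the T cell receptor and its nearest signalling steps moved in both directions. Of 34 tested, 4 rose and 5 fell (26.5%), with a median of -0.01, and 4 and 9 with the block. The falls were steadier than the rises: without any 1 of the 8 libraries 4 to 6 fell but only 0 to 2 rose, with 0 risen without CD5lo replicate 4 or CD5hi replicate 1. The 4 that rose were the adhesion receptor Cd2 (by 0.29 ± 0.07, from 385 to 469.7 CPM), the paracaspase Malt1 (by 0.34 ± 0.08, from 148 to 188 CPM), the exchange factor Vav3 (by 0.34 ± 0.09, from 16.7 to 21.2 CPM) and the SRC family kinase Fyn (by 0.21 ± 0.05, from 487 to 563 CPM). Their adjusted p ran from 0.0175 for Cd2 to 0.0387 for Fyn. Their groups did not overlap, and the log2 changes stayed at or above 0.24, 0.31, 0.31 and 0.18 in the 8 leave-outs. The call of Cd2 was lost without CD5lo replicate 4, CD5hi replicate 1 or CD5hi replicate 4, that of Malt1 was kept only without CD5lo replicate 2 or CD5hi replicate 4, that of Fyn only without CD5lo replicate 1, and that of Vav3 in none. With the block in all 16 libraries, adjusted p was 0.00237 for Cd2, 0.000312 for Malt1, 0.00875 for Vav3 and 0.00959 for Fyn. The adaptor Grap2 (GADS), which couples LAT to SLP-76, was at 978, 1026, 1050.5 and 1108 CPM in CD5lo and 616, 744, 746 and 686 CPM in CD5hi. Its fall of 0.58 ± 0.09 (adjusted p = 0.000874) was, next to that of Thy1, the widest in CPM of the called genes ranked by it. Predicted genes, clone names and receptor segments were not ranked. Of the kinases of the TEC family, Tec fell from 17.97, 17.6, 16.9 and 15.5 CPM to 8.18, 7.48, 8.33 and 7.05 CPM (-1.13 ± 0.10, adjusted p = 6.08e-06) and Txk from 159.6, 171, 151 and 168 CPM to 131, 133, 129 and 126 CPM (-0.32 ± 0.06, adjusted p = 0.00475). The adaptor Sla2, which promotes loss of the receptor from the surface, fell by 0.38 from 57.8 to 44.3 CPM, and 23.6% of its exonic bases are shared with 1110008F13Rik on the opposite strand. Rhoh, counted on another list, is a GTPase-deficient small G protein that brings ZAP-70 and LCK to the receptor. It was at 333, 329.7, 300.4 and 290.0 CPM in CD5lo and 175, 165, 169.6 and 163 CPM in CD5hi, a fall of 0.90 ± 0.07 (adjusted p = 1.59e-06). All 8 values of Rhoh lie in 2 narrow bands.

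Among 38 phosphatases and E3 ligases that restrain signalling, 3 rose and 2 fell, with 8 and 2 under the block and 1 and 2 without CD5lo replicate 3, CD5lo replicate 4, CD5hi replicate 1 or CD5hi replicate 4. The median was 0.05. Ubash3b (STS-1), a phosphatase that acts on ZAP-70, was at 21.9, 18.6, 24.9 and 20.8 CPM in CD5lo and 54.4, 51.5, 58.4 and 49.6 CPM in CD5hi. It rose by 1.31 ± 0.13 (adjusted p = 1.38e-05). The ubiquitin ligases Nedd4 and Nedd4l fell by 0.85 and 0.41, from 9.49 to 5.26 CPM and from 48.3 to 36.2 CPM. Of 48 genes of the RAS and ERK pathway, 1 was called (2.08%, under the share of all genes): Rasal1, a GTPase-activating protein of RAS, at 49.2, 45.02, 48.7 and 39.6 CPM in CD5lo and 84.5, 82.6, 79.02 and 72.7 CPM in CD5hi, rose by 0.81 ± 0.12. With the block that list had 6 higher and 3 lower. Of 32 genes of PI3K, mTOR and FOXO signalling, 0 rose and 2 fell, and the block called 2 and 4, DESeq2 0 and 3, limma voom 0 and 2, with 1 and 4 at p under 0.05 before adjustment. Among the 2 was the pyruvate dehydrogenase kinase Pdk1, which holds back entry of pyruvate into the mitochondrial cycle. This metabolic enzyme is also the 1 fall on the list of glycolysis and glucose use. Pdk1 was at 393, 403, 341 and 403 CPM in CD5lo and 255, 249, 233 and 245 CPM in CD5hi (adjusted p = 1.98e-05). Without any 1 of the 8 libraries except CD5lo replicate 2, the PI3K, mTOR and FOXO list had only 1 lower.

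Of 33 NF-kB subunits and regulators, 0 rose and 2 fell (6.06%), with a median of -0.02. At an unadjusted p under 0.05, 3 were higher and 2 lower. DESeq2 called 1 and 2, limma voom 0 and 2, and the block 3 and 2. The 2 were adaptors of TNF family receptors. Traf1 was at 121, 84.2, 94.7 and 122 CPM in CD5lo and 73.8, 59.5, 62.6 and 81.96 CPM in CD5hi, and Traf5 at 99.7, 90.7, 95.7 and 94.2 CPM in CD5lo and 80.5, 81.2, 81.3 and 75.04 CPM in CD5hi. Their falls of 0.60 ± 0.14 and 0.26 ± 0.06 (adjusted p = 0.0197 and 0.0239) stayed about as large in each leave-out (log2 change -0.70 to -0.53 and -0.28 to -0.23), but the calls did not all hold. Traf1 lost its call without CD5lo replicate 1 or 4 or CD5hi replicate 2 or 3 (adjusted p up to 0.0766), and Traf5 without CD5lo replicate 1, 3 or 4 or CD5hi replicate 1 or 4 (adjusted p up to 0.0828). These leave-out fits had no term for the replicate number. With the block in all 16 libraries, adjusted p was 3.56e-05 for Traf1 and 0.00491 for Traf5. Of 28 immediate early and activation-induced genes, 2 rose and 0 fell, while the block called 3 higher and 4 lower, DESeq2 2 and 1 and limma voom 1 and 0, and 2 were higher and 2 lower at p under 0.05 before adjustment. Nab2, a corepressor of EGR factors, rose by 0.49 ± 0.11, from 84.6, 64.1, 69.5 and 74.6 CPM to 115, 93.9, 91.9 and 109.6 CPM (adjusted p = 0.0132, 0.0511 without CD5hi replicate 1, and 4.9e-05 with the block). The orphan receptor Nr4a1 (NUR77), a widely used marker of recent T cell receptor signalling picked out after its values were seen, was not called. It was at 285, 805, 921 and 499.6 CPM in CD5lo and 267, 684, 696 and 598 CPM in CD5hi, so its level differed several-fold between replicate numbers and little within a pair of equal number (log2 change -0.16 ± 0.43, adjusted p = 0.986). A list of 24 handling and dissociation stress genes had a median of -0.29 with 0 higher and 1 lower, and 0 higher and 10 lower with the block. In this list DESeq2 called 0 and 3, limma voom 0 and 1, and 5 were lower at p under 0.05 before adjustment. Its part in the early genes was not tested.

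Transcription factors were called in one direction for the most part. Of 97 tested, 14 rose and 2 fell (16.5%), although the median was -0.02, and 22 and 9 with the block. Without CD5lo replicate 3 the counts were 12 and 0, and without CD5lo replicate 2, CD5lo replicate 4 or CD5hi replicate 4 only 9 rose. Within the Ikaros family, Ikzf4 (Eos) was at 5.47, 4.71, 6.15 and 6.22 CPM in CD5lo and 13.3, 15.5, 15.6 and 16.1 CPM in CD5hi, and Ikzf2 (Helios) at 1.01, 1.43, 2.14 and 0.588 CPM in CD5lo and 6.64, 10.2, 6.902 and 8.16 CPM in CD5hi. They rose by 1.42 ± 0.16 and 2.63 ± 0.34. Pou2f2 (OCT2) rose by 1.06 ± 0.15, from 7.59, 8.39, 11.3 and 10.7 CPM to 17.4, 20.4, 20.9 and 20.4 CPM, and Tox, which drives CD4 lineage development in the thymus and accompanies exhaustion, rose by 0.57 ± 0.08 from 53.02, 51.4, 60.99 and 58.2 CPM to 86.9, 77.95, 83.6 and 84.4 CPM. The T-box factor Eomes rose by 1.24 from 1.93 to 4.55 CPM (adjusted p = 0.0044, and 0.0817 by limma voom).

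Genes known from regulatory T cells rose together although the CD25+ cells, which include most regulatory T cells, had been gated out. Of 19 tested, 10 rose and 0 fell (52.6%), with a median of 1.42. Of the anergy and follicular helper list, 9 of 24 rose and 0 fell (37.5%), with a median of 0.53 and some members on both lists. Without any 1 library 8 to 10 of the first list and 6 to 9 of the second were called higher, with 0 lower in each, and the block called 11 and 0, and 13 and 1. One gene of either list was lower at p under 0.05 before adjustment, DESeq2 called 0 and 1 lower, and limma voom none. The folate receptor relative Izumo1r (FR4) was at 56.7, 39.1, 53.4 and 45.7 CPM in CD5lo and 313, 221, 256 and 258 CPM in CD5hi, and the ecto-enzyme Nt5e (CD73) at 3.92, 5.24, 5.17 and 2.87 CPM in CD5lo and 20.7, 20.4, 17.3 and 14.8 CPM in CD5hi. The groups lie far apart in both, with rises of 2.43 ± 0.15 and 2.09 ± 0.17 (adjusted p = 6.08e-08 and 1.54e-06). Foxp3, the factor that defines regulatory T cells, picked out after its values were seen, was at 4.05, 3.98, 5.96 and 5.86 CPM in CD5lo and 14.4, 17.8, 15.4 and 22.1 CPM in CD5hi. Its libraries did not overlap either, but its call (adjusted p = 0.037) was lost without any 1 of the 8 libraries (adjusted p from 0.0608 to 0.114), while the rise stayed at 1.68 to 1.91. With the replicate block Foxp3 kept its call. Il2ra (CD25), absent from the surface by the gate, was at 2.17, 1.698, 3.41 and 2.63 CPM in CD5lo and 3.58, 6.16, 3.01 and 8.95 CPM in CD5hi, with overlap between the groups and no call (adjusted p = 0.434). Without the 3 libraries of the series rich in B cell RNA, Il2ra rose by 1.32 (adjusted p = 0.0327). In bulk RNA, fewer cells of a type and less RNA per cell cannot be told apart, here or in any comparison above.

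Both chains of CD8 and the cytotoxic genes Prf1 and Gzma were lower in CD5hi. Of 14 CD8 lineage genes, 5 fell and 2 rose (50%), with a median of -0.86, and -0.53 without CD5lo replicate 3. The coreceptor chain Cd8b1 was at 29.6, 25.5, 30.3 and 27.2 CPM in CD5lo and 7.72, 7.499, 8.34 and 8.42 CPM in CD5hi, a fall of 1.82 ± 0.08 (adjusted p = 4.76e-10). Its partner Cd8a was at 2.79, 2.02, 11.4 and 5.49 CPM in CD5lo and 0.693, 1.15, 1.65 and 2.07 CPM in CD5hi, highest in the library rich in B cell RNA, and fell by 1.97, or 1.31 without that library, with a slight overlap of the groups. Its call was lost when the 8 CD4 libraries were fitted alone (adjusted p = 0.0755) and by limma voom (0.0512). The 2 that rose were Eomes and Ctsw (cathepsin W), the latter by 0.53 ± 0.13 from 84.4 to 122 CPM (adjusted p = 0.029), with its call kept only without CD5lo replicate 3 or CD5hi replicate 2 among the 8 leave-outs (log2 change 0.45 to 0.60). The replicate block called Ctsw as well. The 2 CD8 chains together summed to 27.5 to 41.7 CPM in CD5lo and 8.41 to 10.5 CPM in CD5hi, and what CD8+ cells add to other genes was not tested. The perforin gene Prf1 was at 25.2, 21.2, 25.9 and 39.6 CPM in CD5lo and 11.3, 12.2, 14.3 and 19.02 CPM in CD5hi, and granzyme A (Gzma) at 1.69, 2.06, 1.38 and 1.25 CPM in CD5lo and 0.333, 0.1895, 0.206 and 0.0503 CPM in CD5hi, falls of 0.98 ± 0.19 and 3.03 ± 0.43. Of the whole list of 39 effector, cytotoxic and memory genes, 7 rose and 5 fell (30.8%), and 4 to 5 fell without any 1 library. The 7 rises were less steady, with 2 left without CD5lo replicate 4 or CD5hi replicate 4, 3 without CD5lo replicate 2 or CD5hi replicate 1, and 4 without CD5lo replicate 1 or CD5hi replicate 3.

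Several small surface proteins were lower. Of 24 members of the list of Ly6 and other GPI-anchored or small surface genes, 5 fell and 1 rose (25.0%), with a median of -0.10, 8 and 3 with the block, and 3 fell without CD5lo replicate 1, 3 or 4 or CD5hi replicate 2. Thy1 (CD90), the defining glycoprotein of mouse T cells, was at 1207, 873, 1044 and 1155 CPM in CD5lo and 629, 524, 611 and 628 CPM in CD5hi. It fell by 0.84 ± 0.09 (adjusted p = 3.33e-05), the widest fall in CPM of the called genes ranked by it, which leave out receptor segments. Ly6a (Sca-1) was at 139.5, 124, 116 and 141 CPM in CD5lo and 73.2, 66.97, 81.5 and 76.7 CPM in CD5hi, and Cd7 at 51.3, 57.7, 62.9 and 45.3 CPM in CD5lo and 30.3, 37.2, 35.3 and 31.5 CPM in CD5hi. Both kept the groups apart and fell by 0.80 and 0.69. Among 16 thymocyte and recombination genes, 3 fell and 2 rose (31.2%), at a median of -0.07. Terminal transferase (Dntt), which adds N nucleotides during receptor rearrangement, was at 5.22, 5.28, 3.06 and 6.62 CPM in CD5lo and 0.731, 0.9596, 0.668 and 0.855 CPM in CD5hi, a fall of 2.65 ± 0.31. Chchd10, a mitochondrial protein on that list, rose by 1.34 ± 0.14, from 11.9 to 30.1 CPM.

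Interferon-stimulated genes mostly fell where they were called. Of 69 tested, 11 fell and 1 rose (17.4%), and with the block 16 fell and 4 rose. Without CD5lo replicate 1 only 5 fell, and 6 without CD5hi replicate 2, 3 or 4. Their median of -0.07 lay close to that of all genes, so the called members are a minority of the list. Igtp and Gbp2, interferon-induced GTPases that attack vacuoles of intracellular microbes, were at 209, 220.5, 198 and 215 CPM in CD5lo and 148, 158, 149.9 and 146 CPM in CD5hi, and at 75.5, 72.9, 67.4 and 73.8 CPM in CD5lo and 54.8, 55.2, 53.9 and 55.1 CPM in CD5hi. Both moved in narrow bands, with falls of 0.48 ± 0.06 and 0.40 ± 0.07 (adjusted p = 0.000101 and 0.00315). Gbp11 fell by 1.25, from 15.5 to 6.51 CPM. The exception was Samhd1, a dNTP hydrolase that limits retroviruses, which rose from 407, 390.0, 435 and 417 CPM to 510.3, 544, 552 and 522 CPM (0.37 ± 0.07, adjusted p = 0.00579). Of 27 genes of MHC class I and antigen processing, 0 rose and 2 fell, and 0 and 6 with the block. DESeq2 and limma voom each called 0 and 2, and 1 was higher and 5 lower at p under 0.05 before adjustment. Nlrc5, the transactivator of class I genes, was at 532, 491, 476 and 518 CPM in CD5lo and 421, 440.5, 408 and 420.4 CPM in CD5hi (-0.26 ± 0.05, adjusted p = 0.00774, and 0.0514 in the 8 CD4 libraries alone).

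Metabolic genes were called in both directions, at shares above that of all genes in some lists and below it in the respiratory list. Of 36 genes of glycolysis and glucose use, 2 rose and 1, Pdk1, fell (8.33%), and of 91 of the tricarboxylic acid cycle and respiratory chain 0 rose and 1 fell (1.10%). In the latter list 1 was higher and 1 lower at p under 0.05 before adjustment, and DESeq2 and limma voom each called 0 and 1. With the block these lists had 4 higher and 2 lower, and 1 and 1. The lactate exporter Slc16a3 rose by 1.21 ± 0.26, from 1.54, 1.32, 2.47 and 1.44 CPM to 3.296, 3.39, 5.797 and 3.22 CPM. Its relative Slc16a5 was at 144, 108, 99.6 and 132 CPM in CD5lo and 35.1, 36.1, 32.1 and 32.1 CPM in CD5hi, a fall of 1.84 ± 0.15 (adjusted p = 1.54e-06). It is on the list of transporters, of which 0 of 58 rose and 4 fell (6.90%). The block called 5 higher and 9 lower, DESeq2 3 and 6, limma voom 0 and 3, and 7 were higher and 10 lower at p under 0.05 before adjustment. The phosphate importer Slc20a1 fell by 0.37 from 368 to 285 CPM. Of 67 genes of lipid metabolism, 2 rose and 5 fell (10.4%), with 3 fallen without CD5hi replicate 2 or 4, and 6 higher and 9 lower with the block. Acacb, which makes the malonyl-CoA that blocks mitochondrial fatty acid import, fell by 1.25 ± 0.21 to 2.602 CPM, and the ceramide synthase Cers6 by 0.86 ± 0.16 to 13.6 CPM. The acyl-CoA thioesterase Acot7 rose from 5.22, 2.82, 3.81 and 3.81 CPM to 12.5, 11.02, 9.19 and 10.5 CPM (1.46 ± 0.21). Outside these lists, the epoxide hydrolase Ephx1 was at 87.7, 74.02, 83.4 and 86.7 CPM in CD5lo and 215, 177, 182 and 205 CPM in CD5hi, a rise of 1.23 ± 0.08 (adjusted p = 9.46e-08), and Npc2, which exports cholesterol from lysosomes, was at 628, 578, 610.3 and 601 CPM in CD5lo and 483, 425, 482 and 510.1 CPM in CD5hi (-0.35 ± 0.07). In one-carbon and nucleotide metabolism 2 of 43 rose, Mthfd1l by 0.31 and adenosine kinase (Adk) by 0.55. None fell, while 1 was lower at p under 0.05 before adjustment, 0 by DESeq2, 0 by limma voom and 2 with the block, which called 4 higher.

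Enzymes that build glycans on surface proteins rose where called. Of 57 tested, 6 rose and 0 fell (10.5%), with a median of 0.05, and 8 and 2 with the block. DESeq2 called 7 and 0, limma voom 5 and 0, and 11 were higher and 3 lower at p under 0.05 before adjustment. The sialyltransferase St3gal2 was at 14.5, 11.9, 14.6 and 16.03 CPM in CD5lo and 28.7, 28.9, 27.7 and 27.5 CPM in CD5hi. St6galnac3, another sialyltransferase, rose by 1.24 from 0.934 to 2.22 CPM, and the polylactosamine enzyme B3gnt2 by 0.36 from 88.05 to 113 CPM. The groups did not overlap in any of these 3. Fut7, which makes selectin ligands, rose by 1.10 ± 0.22 from a mean of only 0.291 CPM (adjusted p = 0.00762, and 0.0578 by limma voom).

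Regulators of the cytoskeleton and of membrane traffic showed some of the widest changes. Of 81 genes of membrane traffic and exocytosis, 4 rose and 3 fell (8.64%), and 12 and 6 with the block. The GTPase-activating protein Arhgap20 was at 0.414, 0.747, 1.07 and 0.345 CPM in CD5lo and 8.605, 12.5, 9.42 and 7.39 CPM in CD5hi, and the Rac-directed Chn2 at 1.71, 1.85, 2.97 and 1.19 CPM in CD5lo and 18.04, 13.5, 17.1 and 11.1 CPM in CD5hi. They rose by 3.88 ± 0.38 and 2.96 ± 0.24. A pair of PDZ-LIM proteins of actin cables went opposite ways, Pdlim7 rising by 1.16 ± 0.14 to 14.04 CPM and Pdlim4 falling by 1.87 ± 0.38, from 110.5, 94.6, 99.3 and 92.2 CPM to 25.7, 31.04, 28.7 and 22.7 CPM. Of synaptotagmin-like RAB27 effectors, Sytl2 was at 29.3, 24.9, 15.6 and 25.8 CPM in CD5lo and 85.0, 73.7, 56.7 and 63.2 CPM in CD5hi and rose by 1.54 ± 0.21, while Sytl3 fell by 1.33 ± 0.20 from 2.02 to 0.803 CPM. Syt11, a synaptotagmin that does not bind calcium, rose from 13.4, 14.9, 18.97 and 16.9 CPM to 30.5, 28.6, 32.5 and 31.6 CPM (0.94 ± 0.09). Among 28 axon guidance genes 3 rose and 0 fell (10.7%), including the semaphorin receptors Plxnb1 (from 9.46 to 14.9 CPM) and Nrp2 (from 0.3804 to 1.68 CPM). The block called 8 and 2, DESeq2 5 and 1, limma voom 4 and 0, and 7 were higher and 3 lower at p under 0.05 before adjustment. Ion channel genes moved both ways, 3 of 41 higher and 2 lower, and 7 and 6 with the block. Trpm1 rose from a mean of 0.741 to 5.401 CPM and the potassium channel Kcna2 fell from 6.57, 5.19, 5.79 and 8.93 CPM to 1.46, 2.12, 1.59 and 1.63 CPM. Saraf, which shuts off store-operated calcium entry, was at 526, 559.8, 617 and 552 CPM in CD5lo and 379, 423, 483 and 418 CPM in CD5hi, a fall of 0.40 ± 0.07 (adjusted p = 0.00248).

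Few genes of machinery shared by all cells were called. None of 82 cytosolic ribosomal protein genes, 74 mitochondrial ribosomal protein genes and 38 proteasome genes was called by edgeR without the block, DESeq2 or limma voom, with medians of -0.07, -0.02 and 0.05. With the replicate block edgeR called 2 cytosolic ribosomal genes lower, 2 mitochondrial ones higher and 1 lower, and 1 proteasome gene lower. At an unadjusted p under 0.05, 2 cytosolic ribosomal genes were lower, 1 mitochondrial one higher and 1 lower, and 1 proteasome gene higher. Of 40 cell cycle genes, 0 rose and 1 fell, as with DESeq2 and limma voom, while 8 rose and 1 fell with the block, the same numbers as at p under 0.05 before adjustment. The gene that fell was Kif23, a kinesin of the central spindle, at 33.8, 32.4, 35.4 and 31.5 CPM in CD5lo and 11.5, 11.7, 15.1 and 11.2 CPM in CD5hi (-1.43 ± 0.13, adjusted p = 6.08e-06), against the sign of that list's median of 0.20. Of 36 BCL2 family and cell death genes, 4 rose and 0 fell (11.1%), with 10 and 2 under the block. DESeq2 called 5 and 2, limma voom 4 and 0, and 10 were higher and 2 lower at p under 0.05 before adjustment. The pro-apoptotic Bcl2l11 (BIM) was at 39.8, 48.3, 63.3 and 54.4 CPM in CD5lo and 72.98, 75.9, 91.2 and 83.02 CPM in CD5hi. The translation inhibitor Pdcd4 was at 188, 193, 213 and 204 CPM in CD5lo and 270.4, 307, 282 and 278 CPM in CD5hi, and Bcl2a1b and Bcl2a1d, near-identical survival genes between which reads may be divided, rose by 1.08 and 1.63. Among 88 chromatin and DNA methylation enzymes, 1 rose and 2 fell (3.41%), below the share of all genes, and 3 and 4 with the block. The class IIa deacetylase Hdac7, which restrains gene programs in thymocytes, was at 483, 409, 504 and 514 CPM in CD5lo and 310.5, 344, 359 and 362 CPM in CD5hi (-0.47 ± 0.09, adjusted p = 0.00602). The bar plot of the lists sets these shares against those of all genes.

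**Figure D4:**
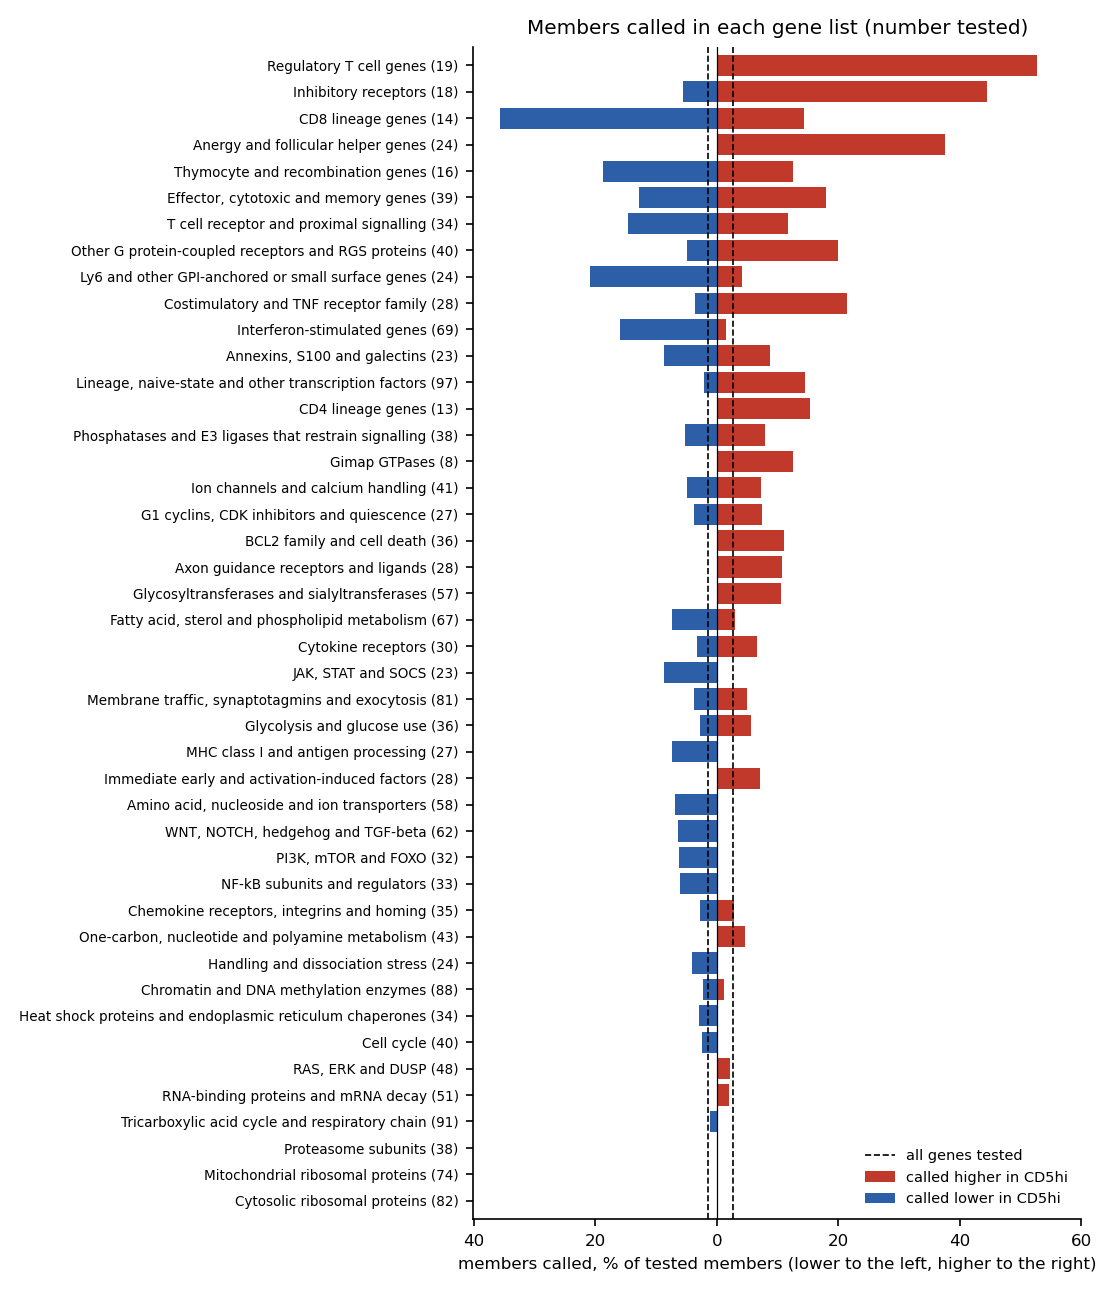
Share of the tested members of each of 44 gene lists called higher (red, to the right) or lower (blue, to the left) in CD4 CD5hi, in percent, with the number tested in parentheses. Dashed lines mark the shares over all tested genes (2.68% higher, 1.40% lower); regulatory T cell genes reach 52.6% and cytosolic ribosomal, mitochondrial ribosomal and proteasome genes have no bar.

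Beyond the lists, some changes under 2-fold at good depth were called. The genes below were picked for a small p, and Atp1b3 for its difference in CPM. The lysosomal sorting receptor Igf2r was at 116, 116, 145 and 125 CPM in CD5lo and 217, 256, 245 and 205 CPM in CD5hi (0.88 ± 0.10, adjusted p = 5.18e-05). The ARF exchange factor Cyth3, a PI3K effector, rose from 42.4, 43.5, 52.8 and 46.5 CPM to 76.6, 73.2, 77.8 and 73.3 CPM (0.70 ± 0.08). Atp1b3, a subunit of the sodium pump, was at 599.9, 619, 585 and 626 CPM in CD5lo and 696, 799, 699.9 and 720.0 CPM in CD5hi. Its rise of 0.26 ± 0.06 (adjusted p = 0.013) shows how small a change could be called at this level, though it missed the threshold in the 8 CD4 libraries alone (adjusted p = 0.0783) and without the 3 libraries rich in B cell RNA (0.0655). On the lower side, the ARF-like GTPase Arl5c was at 161, 160.1, 153 and 154 CPM in CD5lo and 81.2, 80.01, 87.1 and 75.02 CPM in CD5hi (-0.96 ± 0.07, adjusted p = 1.3e-06), Hid1, which acts in dense core granule formation, fell from 108, 92.9, 103 and 110.3 CPM to 51.7, 56.4, 56.4 and 65.5 CPM, and the lysosomal trafficking regulator Lyst from 91.9, 91.1, 95.1 and 118 CPM to 60.2, 75.4, 64.2 and 57.5 CPM. Their groups were fully apart. The SOCS box protein Spsb1 and the phosphatase and cofactor Eya2 fell by 0.75 and 0.73.

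Without the library rich in B cell RNA, 445 of the 553 called genes were called again. Without CD5lo replicate 3, 0 of the 553 changed sign, and 37 moved by more than 0.25 on the log2 scale (6.69%, beside 7.02% of all tested genes). In the plot with and without that library, called genes lie along the diagonal, whereas a cloud of genes that were not called moves from negative values to near 0. Cd74 is one of these, from -2.18 to -0.15. The median of the 16 B cell markers was -2.66 with 0 called by edgeR, DESeq2 or limma voom and 1 lower at p under 0.05 before adjustment, and without that library the median was -0.65. Any 1 of the 8 CD4 libraries could be left out with 316 of the 553 genes keeping their call each time, 220 higher and 96 lower. Counts of 3 or fewer in a list often changed by over 1.5 times when 1 library was left out, so these counts are less firm than the named genes: unless said otherwise beside them, they kept their call without any 1 of the 8 CD4 libraries.

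**Figure D5:**
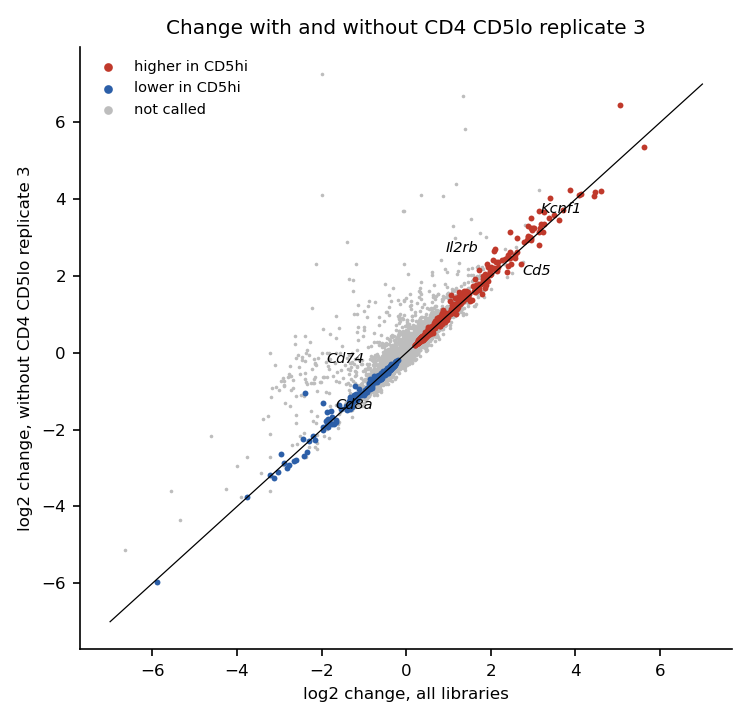
Log2 change in CD5hi against CD5lo with all libraries (x axis) and without CD4 CD5lo replicate 3 (y axis) for each tested gene, with the line of equality. Genes called higher (red) and lower (blue) lie along the line, and Cd74, not called (grey), moves from -2.18 to -0.15.

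The change from CD5lo to CD5hi differed between CD4+ and CD8+ cells in 42 of 13554 genes by the interaction term (0.310%), and 27 of these were called in CD4+ cells, 16 higher and 11 lower. The step in Cd5 RNA was not the same in the 2 sorts, with a rise of 2.44 in CD4+ and of 1.31 in CD8+ cells. Surface CD5, on which the cells were sorted, is not among these data. A difference between lineages and a wider step in CD5 cannot be told apart here. In CD8+ cells 16 of the 27 had the same sign and 11 the opposite sign. Itga9, an integrin chain, was at 0.3103, 0.244, 0.509 and 0.358 CPM in CD5lo and 2.56, 3.36, 3.19 and 2.44 CPM in CD5hi, a rise of 3.02 in CD4+ and a change of 0.40 in CD8+ cells (interaction adjusted p = 0.00479). Trib2, a pseudokinase, rose by 0.28 in CD4+ cells, from 343, 354, 337 and 339 CPM to 415, 408, 433 and 412 CPM, and its change was -0.25 in CD8+ cells (interaction adjusted p = 0.0108). For Cd8b1, Izumo1r and Nt5e the differences between the lineages were -1.35, 1.42 and 1.43. That of Cd8b1 sets unlike levels side by side: the 2 CD8 chains summed to at most 41.7 CPM in CD4+ and at least 2480 CPM in CD8+ libraries. Sestd1 fell by 1.16 in CD4+ cells, from 12.7 to 5.67 CPM, and its change in CD8+ cells was 0.05. The count of 42 varied with the fit. It became 471 with the block and 129 without the 3 libraries rich in B cell RNA. Leaving out 1 library gave 8 to 165, the latter without CD8 CD5hi replicate 4, and moved the count by over 1.5 times in 13 of 16 cases, the exceptions being replicate 3 of CD4 CD5lo, replicate 3 of CD8 CD5lo and replicate 1 of CD8 CD5hi. The call of Cd8b1, Izumo1r, Itga9 and Trib2 held in all 16 of these fits. Nt5e kept its call in 15 and Sestd1 in 11.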

How the data were processed

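The deposited table holds raw counts per gene for 16 libraries, with 0 columns left unmatched to a sample. Per the submitters' processing notes, STAR 2.5.2a, featureCounts 1.4.6-p3, DESeq2 and the mm10 build were used. Per the labels' protocols, libraries came from an unstranded or a stranded TruSeq kit. Neither the kit of each library nor whether counting used strand was stated. Even numbers made up 74.7 to 80.4% of counts from 1 to 9 per CD4 library, so halved counts were tried as well.

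Of 24421 genes, 6123 had no count and 13554 passed filterByExpr (minimum count 10, total 15). With TMM factors, edgeR 4.0.16 (R 4.3.3) fitted all 16 libraries with a term per group (12 residual degrees of freedom) and its quasi-likelihood test gave each CD5hi minus CD5lo contrast and their difference (the interaction). P-values were adjusted by Benjamini-Hochberg over all tested genes, at 0.05. Standard errors are the log2 change over the root of F. The procedure was tested on simulated data. limma 3.58.1 (voom), DESeq2 1.42.0, other factors and filters, subsets of libraries and a replicate block (6 residual degrees of freedom) were alternatives. Libraries of equal number deviated together from their group means. Over the 13554 genes, r was 0.400, 0.201, 0.485 and 0.270 for numbers 1 to 4. Over the 9246 genes with a mean of at least 5 CPM, r was 0.771, 0.511, 0.868 and 0.706. Libraries of unequal number had r of -0.665 to 0.230 over the latter genes. The numbers were therefore taken to pair the libraries, a hint from the data and not a statement of the labels. The main fit has no term for the replicate number, so its standard errors include this shared variation. It called 4.08% of tested genes and the block 10.4%, so some genes not called here were called with the block.

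Members, gene lists and tests were chosen with earlier results of these data known. Genes were named by rule: the 10 called genes with the largest CPM difference, the 12 of smallest p under 2-fold and over 20 CPM, up to 4 called members of each list by p, and the 6 of smallest interaction p, each per direction, plus the genes of the gate. Except for the choice from lists, predicted genes, clone names, names turned into dates and T cell receptor or immunoglobulin segments were left out of these rankings. Positions and lengths are from GENCODE vM21. Results for a few named genes and 1 list are not reported here. Low-count calls carry the widest counting error.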

Additional observations from a re-analysis of the deposited data

Results flagged for a closer look

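In 15 of 254 groups of 4 libraries, 1 library lay far from the other 3, where chance alone gives about 1 in 20. CD5lo replicate 3 held 4 of these: Cd74 at 134.8 CPM beside 7.49 to 12.3, the B cell markers together at 402 CPM beside 23.02 to 40.9, the erythroid and platelet markers at 11.8 CPM beside 6.39 to 7.10, and Pdk1 at 341 CPM beside 393 to 403. Replicate 4 held Xist at 225 CPM in CD5lo and 248 CPM in CD5hi, and Ddx3y at 47.9 CPM in CD5hi beside 104 to 115.

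The other 8 concerned single genes. Traf5 was at 75.0 CPM in CD5hi replicate 4 beside 80.5 to 81.3, and Pou2f2 at 17.4 CPM in CD5hi replicate 1 beside 20.4 to 20.9. Slc16a3 was at 5.80 CPM and Kif23 at 15.1 CPM in CD5hi replicate 3, beside 3.22 to 3.39 and 11.2 to 11.7. Lyst was at 118 CPM and Rgs10 at 113 CPM in CD5lo replicate 4, beside 91.1 to 95.1 and 135 to 139. Bcl2a1b was at 13.8 CPM in CD5hi replicate 1 beside 8.85 to 9.56, and Fyn at 581 CPM in CD5hi replicate 1 beside 556 to 557.

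The change from CD5lo to CD5hi was tested as different between CD4+ and CD8+ cells for 16 genes named here, the CD4 effect minus the CD8 effect being given on the log2 scale. As said above, a wider step in CD5 of the CD4+ sort cannot be told apart from a difference between lineages. It was 1.13 for Cd5, the gene of the gate itself and given as a value only, 0.87 for Cd6, 1.53 for A430093F15Rik, 1.42 for Izumo1r, 1.43 for Nt5e, 1.10 for Tnfrsf4, 0.63 for Ephx1 and 0.73 for Syt11. It was 2.62 for Itga9, 2.47 for Gucy1a3 and 0.54 for Trib2. Among genes that fell in CD4+ cells it was -1.35 for Cd8b1, -0.93 for Tec, -1.21 for Sestd1, -0.94 for Kif23 and -0.73 for Lair1. When each of the 16 libraries was left out in turn, Cd5, Cd6, A430093F15Rik, Izumo1r, Cd8b1, Itga9 and Trib2 kept the call in all 16 fits, Nt5e, Tec and Gucy1a3 in 15, Sestd1 in 11, Ephx1 in 9, Syt11 in 7, Kif23 in 3, and Lair1 and Tnfrsf4 in 2.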

How the results depend on the processing

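Counts of genes higher and lower in CD5hi stayed within 1.5 times of 363 and 190 with RLE factors, either other filter on low counts, limma voom, the 8 CD4 libraries alone, halved counts, and without the libraries rich in B cell RNA. DESeq2 gave 307 lower and 215 for the interaction. The replicate block gave 826 higher, 579 lower and 471 for the interaction. Blocked CD4 libraries alone gave 852 higher, 662 lower and 119 lower by at least 2-fold. Without the 3 libraries rich in B cell RNA the interaction gave 129. A block fitted without these 3 and also without their partners of equal number gave 655 higher, 407 lower, 242 higher by at least 2-fold and 381 for the interaction. Blocked CD4 libraries without pair 3 gave 713 higher, 453 lower and 247 higher by at least 2-fold. Leaving out 1 library gave 259 to 335 higher, 123 to 159 lower, 138 to 169 higher and 48 to 58 lower by at least 2-fold, and 8 to 165 for the interaction. The cause of these shifts was not tested. The replicate block in all 16 libraries changed no call of a gene named in the text. No named gene that was called changed direction. Besides the losses given with the genes, Nlrc5 and Trib2 missed the threshold in the block without the 3 libraries rich in B cell RNA and their partners (adjusted p = 0.0512 and 0.0526). They also missed it in blocked CD4 libraries without pair 3 (0.0632 and 0.0628), and Atp1b3 did so in both (0.0641 and 0.0697). Traf5 missed it in the 8 CD4 libraries alone (0.0593) and, without a block, without the 3 libraries rich in B cell RNA (0.0519). Cd2, Vav3 and Fyn lost their calls in 2, 3 and 5 of the settings other than leave-outs (adjusted p up to 0.0743, 0.0935 and 0.152). Il2ra passed the threshold in the blocked fits of CD4 libraries alone (log2 change 1.05), without the 3 libraries and their partners (1.45) and of CD4 libraries without pair 3 (1.46). Depth limits weakly expressed genes: under 5 CPM the median called change was 1.64, so smaller changes there may have been missed.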

Other observations

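Genes around cyclic nucleotides, chosen after their values were seen, moved on several levels. The soluble guanylate cyclase subunits Gucy1a3 and Gucy1b3 rose together from low levels, as given above. Pde3b, a phosphodiesterase that breaks down cyclic AMP and is inhibited by cyclic GMP, was at 101, 109, 128 and 108 CPM in CD5lo and 64.8, 63.6, 75.5 and 54.3 CPM in CD5hi, a fall of 0.79 ± 0.11 (adjusted p = 0.000282) with the groups apart. Among receptors that raise cyclic AMP, Adora2a and Ptger2 rose.

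A few genes outside every list, also chosen after their values were seen, moved without overlap between the groups. The stress-responsive Ndrg1 was at 12.2, 10.7, 11.9 and 10.4 CPM in CD5lo and 30.8, 30.4, 26.6 and 31.2 CPM in CD5hi, and its relative Ndrg3 at 167, 158, 149.8 and 185 CPM in CD5lo and 226, 233, 212 and 237 CPM in CD5hi, rises of 1.39 ± 0.13 and 0.46 ± 0.07 (adjusted p = 6.76e-06 and 0.000603). The apolipoprotein L genes Apol9a and Apol9b, near-identical copies between which reads may be divided, rose by 1.38 ± 0.26 and 2.40 ± 0.24 while most interferon-stimulated genes that were called fell, although both are known to be interferon-inducible. Apol9b was at 1.44, 1.58, 1.78 and 0.728 CPM in CD5lo and 8.28, 7.39, 7.11 and 6.32 CPM in CD5hi.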
